A study of Mus musculus with 54 samples.

Results

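The comparison described here is that of Rxrg KO with CTRL cells in the nILC2 population of mouse small intestine. Its members are the 8 of 54 samples of the series whose titles read nILC2 with CTRL or KO, 4 libraries in each group, with all 10176 genes that the deposited expression table lists. RNA-seq libraries were made in bulk with Smart-seq2, which reads whole transcripts from little RNA, from group 2 innate lymphoid cells (ILC2s) flow-sorted from the small intestine. The CTRL mice carry the label WT and are Rxrg+/+ in the series text, and the KO mice are Rxrg-/-. Both groups are C57BL/6, 8-12 weeks old, labelled as pooled male and female, and both carry the treatment label IL25 with a treatment time of 48h, so no untreated group stands beside them here. The labels do not spell out the prefix n of nILC2, nor the prefix i of iILC2, the other sorted population, whose 4 CTRL and 4 KO libraries are set beside the results. One label writes the knockout as cKO, and no Cre driver is named in the sources used here, so it is not known whether other cells of these mice lack Rxrg too. Nothing in the labels says that libraries of a group came from separate animals, so every p-value below measures only a spread between libraries. In the main fit used to call genes, that spread was estimated from the nILC2 and iILC2 libraries together. The series title places the comparison under the question of how retinoid X receptor gamma sets the reactivity of intestinal ILC2s.

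ILC2s are tissue lymphocytes without rearranged antigen receptors that answer epithelial alarm cytokines such as IL-25 and IL-33 by secreting IL-5 and IL-13, and in the gut they take part in defence against worms and in allergic inflammation. Retinoid X receptors are nuclear receptors that bind DNA in pairs, with one another or with partners such as the liver X receptors (LXRs), peroxisome proliferator-activated receptors and retinoic acid receptors, at repeats of the hexamer AGGTCA. Through the LXR partner they act on genes of cholesterol efflux, and Rxrg, the gamma member of the family, is best known from muscle, brain and retina.

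Values are in TPM, the authors' measure of each transcript's share of a library, corrected for transcript length and scaled to a fixed total. Per library, the listed genes added up to 849733 to 872511 TPM, and 9787 to 9864 genes reached 1 TPM. TPM keeps no read total, so depth is unknown. The defining ILC2 markers were present in every library: 11 of 12 were listed (all but Ptgdr2), with summed levels of 2429.14 to 2755.61 TPM in CTRL and 1766.33 to 2423.52 TPM in KO. Genes of the Y chromosome did not match the label of pooled sexes. Ddx3y, Eif2s3y, Kdm5d and Uty together were listed at 0 TPM in CTRL 2, KO 1 and KO 2 and at 117.81 to 142.17 TPM in the other 5 libraries, so that 3 of 4 CTRL and 2 of 4 KO libraries expressed them. The iILC2 libraries split by the same numbers, at 0 to 0.59 TPM in CTRL 2, KO 1 and KO 2 and at 93.43 to 103.91 TPM in the others. Along the main axis of variation of the 8 libraries, which held 27% of the variance, CTRL libraries lay at -25.9 to -1.36 and KO 2, KO 3 and KO 4 at 13.8 to 26.9, while KO 1 lay at -10.1, within the CTRL range.

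Rxrg itself was read first. Its level was 12.32, 17.36, 12.17 and 18.42 TPM in CTRL 1 to 4 and 2.58, 1.76, 1.27 and 3.12 TPM in KO 1 to 4. All 4 KO libraries lay far below all CTRL libraries, and the gene was not absent from any of them. The mean fell from 15.1 ± 3.29 to 2.18 ± 0.826 TPM (SD, n = 4 each), which is 6.90-fold lower, with an exact permutation p of 0.0286, the smallest that 4 libraries against 4 can give. The limma adjusted p, with Benjamini-Hochberg adjustment over all genes tested, was 1.24e-05 for a log2 fold change of -2.35 (SE 0.209) on TPM + 1. The Rxrg gene lies on chromosome 1 at 167598362 to 167639623 (GRCm38.p6, the assembly of mm10). The tables give 1 value per gene, so whether the remaining reads cover a deleted exon cannot be read from them.

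Promoter sequences were taken from RefSeq with GRCm38.p6, 250 bases before to 50 bases after each annotated start, and searched for AGGTCA on both strands, where the reverse strand reads TGACCT. This hexamer was found for 13 of 78 genes called higher in KO that had a promoter entry (16.7%) and for 10 of 47 genes called lower (21.3%), against 1199 of 8156 genes tested (14.7%) and 18.1% of all genes in the promoter table. AGGTCA repeated with a spacing of 1 base, the element of RXR pairs, or of 4 bases, the element shared with LXR, was found for no called gene, against 4 of 8156 genes tested for spacing 1 (0.049%) and 0 for spacing 4. Since no called gene held a direct repeat, 3 promoters with a hexamer are shown instead, chosen after their values were seen because their genes recur below. They are the start inside the Rxrg gene itself (chr1:167618015-167618314, plus strand, hexamer beginning 88 bases before the start), the start of Clnk, which was higher in KO (chr5:38876644-38876943, minus strand, 190 bases before), and the start of Nrp1, which was lower (chr8:128358823-128359122, plus strand, 246 bases before). Capitals mark the hexamer, forward in Rxrg and Clnk and reversed in Nrp1.
Rxrg: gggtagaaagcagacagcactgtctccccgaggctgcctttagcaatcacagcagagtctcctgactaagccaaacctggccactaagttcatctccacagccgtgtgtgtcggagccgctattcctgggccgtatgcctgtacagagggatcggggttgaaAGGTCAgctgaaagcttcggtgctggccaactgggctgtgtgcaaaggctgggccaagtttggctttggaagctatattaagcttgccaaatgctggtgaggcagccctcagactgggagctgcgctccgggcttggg
Clnk: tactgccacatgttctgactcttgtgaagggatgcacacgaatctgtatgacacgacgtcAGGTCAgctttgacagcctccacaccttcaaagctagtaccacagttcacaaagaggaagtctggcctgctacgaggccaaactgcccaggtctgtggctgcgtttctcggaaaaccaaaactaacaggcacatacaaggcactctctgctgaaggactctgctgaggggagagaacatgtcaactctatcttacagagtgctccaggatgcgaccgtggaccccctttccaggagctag
Nrp1: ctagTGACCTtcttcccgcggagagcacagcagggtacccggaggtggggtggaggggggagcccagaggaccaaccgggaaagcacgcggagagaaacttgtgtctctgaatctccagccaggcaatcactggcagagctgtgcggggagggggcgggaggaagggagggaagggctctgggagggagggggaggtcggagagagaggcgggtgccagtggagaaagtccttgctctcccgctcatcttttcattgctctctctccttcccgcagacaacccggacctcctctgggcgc
A match of 6 letters is common in windows of this length, and a match describes the sequence alone.

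Across the transcriptome the KO libraries differed in a limited set of genes. Of 10069 genes tested, 155 were called (limma adjusted p under 0.05), which is 1.54% of them, with 95 higher in KO (0.943%) and 60 lower (0.596%). The falls were larger than the rises: of the 36 called genes that changed at least 2-fold on the TPM + 1 scale, 25 were lower and 11 higher, and the median log2 fold change was -0.947 among genes called lower and 0.48 among those called higher, beside -0.00284 over all genes tested. Rescaling by the median of ratios gave 204 higher and 68 lower, so the split between directions depends on the scaling. At an unadjusted p under 0.05, 11.1% of genes were higher and 8.19% lower. The 4 libraries of each group did not overlap for 638 genes, 6.34% of those tested, and 121 of these were among the called genes. In the plot of all genes, Rxrg, Ceacam1, Tigit and Clnk stand apart from the rest.

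**Figure D1:**
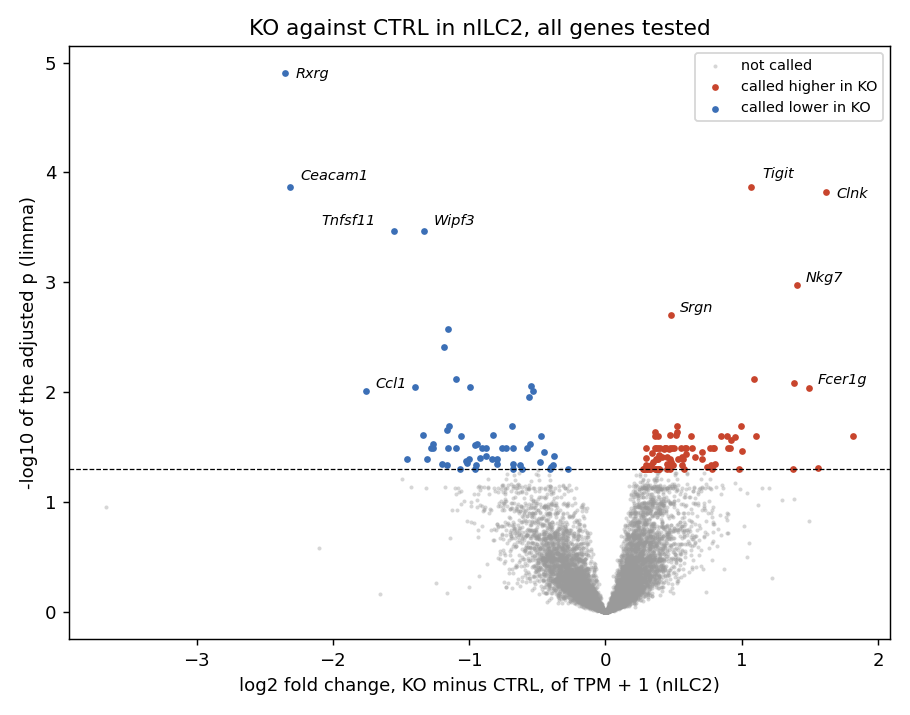
Each point is 1 of 10069 genes, with the log2 fold change of TPM + 1 in nILC2 KO against CTRL on the x axis and the -log10 of the limma adjusted p on the y axis. The dashed line marks an adjusted p of 0.05, above which lie 95 genes higher in KO (red) and 60 lower (blue).

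The number of called genes rested on single libraries. Leaving out KO 1 raised it from 155 to 1006 (641 higher and 365 lower), and leaving out CTRL 2 raised it to 411. Leaving out CTRL 1, CTRL 3, CTRL 4, KO 2, KO 3 or KO 4 lowered it to 71, 55, 23, 26, 24 and 45. Over the called genes, KO 1 was the KO library nearest to CTRL: on a scale where the CTRL mean is 0 and the KO mean is 1, the median position was 0.633 in KO 1 and 1.15, 1.25 and 0.943 in KO 2 to 4. The CTRL libraries stood at 0.0576, 0.297, 0.000439 and -0.278, so CTRL 2 was the CTRL library nearest to KO and CTRL 4 the one farthest away. With CTRL 4 and KO 1 both left out, 563 genes were called, 141 of the 155 among them. A fit to the 8 nILC2 libraries alone, without the iILC2 libraries in the estimate of spread, called 5 genes: Rxrg (limma adjusted p = 0.00206), Ceacam1 (0.00206), Tigit (0.0167), Tnfsf11 (0.0171) and Clnk (0.0181). All 155 genes kept their sign in each of the 8 leave-one-out fits, which says little, since they were called on the same libraries. Of the 155, 125 were called in 4 or fewer of these fits. Libraries with Y-linked expression alone gave the direction of all 155 genes and those without it that of 154, as a description, since the genes were chosen on the same libraries. A term for Y-linked expression left 62 calls (29 higher, 33 lower).

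**Figure D2:**
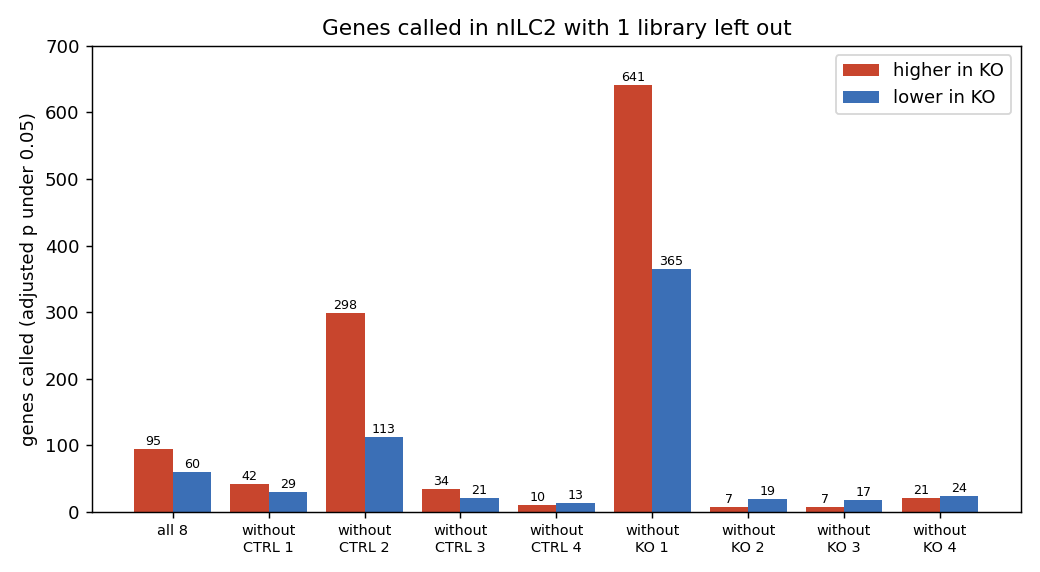
Bars give the number of genes called higher (red) and lower (blue) in KO at a limma adjusted p under 0.05, with all 8 nILC2 libraries and with each one left out in turn. The bars without KO 1 reach 641 and 365, and those without KO 2 or KO 3 reach 7 higher and 19 or 17 lower.

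In all, 20 genes were called in every one of the 8 leave-one-out fits, 7 higher and 13 lower in KO. They are described first, by role, and those among them that the rule for named genes does not cover were chosen after their values were seen.

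Of the 7 rises, Clnk, Tigit and Fcer1g belong to immunoreceptor signalling. Clnk, an adaptor related to SLP-76 that acts downstream of immunoreceptors, was at 6.61, 6.84, 3.94 and 4.23 TPM in CTRL 1 to 4 and at 14.91, 25.45, 17.39 and 16.71 TPM in KO 1 to 4. Every KO library was above every CTRL library, with a log2 fold change of 1.62 (SE 0.185, limma adjusted p = 0.000151). Tigit, an inhibitory receptor of T and NK cells, was at 11.29, 10.02, 11.82 and 10.21 TPM in CTRL and at 23.24, 22.96, 26.42 and 22.88 TPM in KO. Both groups were tight and did not overlap, and the mean rose from 10.8 ± 0.863 to 23.9 ± 1.70 TPM (SD, n = 4 each; log2 fold change 1.07, SE 0.119, limma adjusted p = 0.000136). Fcer1g, the signalling gamma chain shared by Fc receptors, was at 7.78, 18.31, 6.92 and 7.44 TPM in CTRL and at 23.01, 35.88, 28.64 and 26.05 TPM in KO. CTRL 2 stood above the other CTRL libraries yet below every KO library, and the log2 fold change was 1.49 (limma adjusted p = 0.00912). The call of Fcer1g was closest to the threshold when 1 library was left out, at 0.0494. Fcer1g lies 3613 kb from Rxrg on chromosome 1 (171229572 to 171234349).

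The granule genes Nkg7 and Srgn also rose. Nkg7, a membrane protein of cytotoxic granules, was at 31.85, 56.95, 24.72 and 30.28 TPM in CTRL and at 63.83, 108.71, 96.46 and 106.99 TPM in KO. No CTRL library reached the lowest KO library, and the log2 fold change was 1.40 (SE 0.191, limma adjusted p = 0.00107). Srgn encodes serglycin, the proteoglycan core on which granule proteases are packed, and its mean rose from 821 ± 67.2 to 1143 ± 50.2 TPM (log2 fold change 0.48, SE 0.0689, limma adjusted p = 0.00199, but 0.0715 after quantile normalization). Its lowest KO library, at 1103.75 TPM, was above its highest CTRL library, at 908.62 TPM. No granule protease was called. Of the 8 tested members of the granule and cytotoxic list, 2 were called higher, Nkg7 and Srgn, beside 0.943% of all genes tested. The median log2 fold change of the list was -0.00167. Without KO 1 or CTRL 2, 1 member was called lower. Gzma, granzyme A, ranged from 137.85 to 341.57 TPM in CTRL and from 81.81 to 578.93 TPM in KO, with KO libraries both below and above all of CTRL. Prf1, perforin, was at 4.57 ± 1.82 and 5.03 ± 1.12 TPM. The other rises called in each leave-one-out fit were Paqr4, a membrane protein of the progestin and adipoQ receptor family, from 11.9 ± 5.56 to 30.9 ± 7.13 TPM, and Rom1, a tetraspanin best known from photoreceptors, from 6.84 ± 2.17 to 15.7 ± 3.93 TPM, both without overlap.

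Ceacam1 fell most after Rxrg on the log2 scale of TPM + 1, and more than Rxrg by the ratio of mean TPM, 24.2-fold. It encodes an adhesion molecule with inhibitory motifs. Its level was 4.25, 8.03, 4.03 and 4.46 TPM in CTRL libraries and 0.19, 0.35, 0 and 0.32 TPM in KO, a log2 fold change of -2.32 (SE 0.255, limma adjusted p = 0.000136). It was near the bottom of the scale in every KO library and listed at 0 in KO 3. Tnfsf11, which encodes RANK ligand, a TNF family cytokine, was at 8.18, 6.38, 10.93 and 8.80 TPM in CTRL and at 1.91, 1.82, 2.57 and 2.67 TPM in KO. The groups were well apart, with a log2 fold change of -1.55 (SE 0.192, limma adjusted p = 0.000339, but 0.0828 with a pseudocount of 0.1 TPM). Ccl1, a chemokine that binds CCR8, was at 10.40, 15.18, 25.38 and 11.42 TPM in CTRL and at 9.13, 3.43, 2.42 and 2.05 TPM in KO. KO 1 was close to the lowest CTRL libraries for Ccl1 and the other KO libraries were far below, with a log2 fold change of -1.75 (limma adjusted p = 0.00979, and 0.0484 at its highest with 1 library left out).

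Of the other falls among the 13, several were of signalling components. Nrros, which anchors latent TGF-beta at the cell surface, fell from 63.7 ± 2.68 to 43.2 ± 6.63 TPM, and Tgfbr3, the accessory TGF-beta receptor betaglycan, from 3.52 ± 0.745 to 1.03 ± 0.347 TPM. Wls, the carrier that Wnt proteins need for secretion, fell from 158 ± 9.03 to 110 ± 15.1 TPM. None of these 3 genes had overlapping libraries, and their log2 fold changes were -0.56, -1.15 and -0.53. Tgfb3, the ligand, went the other way, from 0.147 ± 0.135 to 1.17 ± 0.517 TPM, and was called (limma adjusted p = 0.0317), though at a very low level and in only 2 of the 8 leave-one-out fits (0.112 at its highest). H2-Q7, a nonclassical MHC class I heavy chain, fell from 475 ± 41.1 to 327 ± 44.7 TPM. Its reads resemble those of neighbouring class I genes, and how they were divided among these copies could change that value. The remaining 5 falls were of genes under 10 TPM: Moxd1, a monooxygenase-like protein (7.74 ± 0.138 to 2.96 ± 1.09 TPM), Thsd4 (4.08 ± 1.23 to 0.978 ± 0.739 TPM), Wipf3, an actin regulator (2.77 ± 0.559 to 0.503 ± 0.221 TPM), Ampd3, an AMP deaminase (2.01 ± 0.398 to 0.398 ± 0.109 TPM) and Nyap2 (1.57 ± 0.381 to 0.295 ± 0.226 TPM). In each of them the lowest CTRL library stayed above the highest KO library, as the plot of these genes by library shows. These low levels depend on the pseudocount: at 0.1 TPM in place of 1 TPM, Moxd1, Thsd4, Ampd3 and Tgfbr3 were no longer called (limma adjusted p from 0.0597 to 0.102), nor was Tnfsf11.

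**Figure D3:**
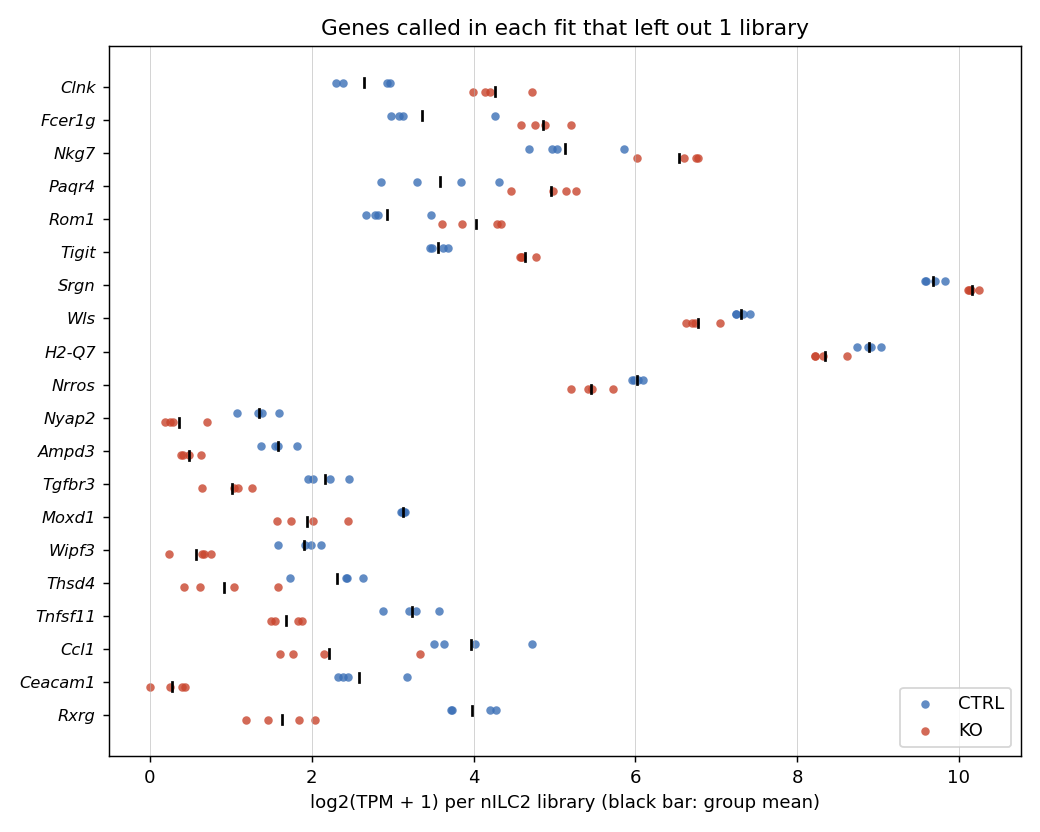
Each point is the log2 of TPM + 1 of 1 nILC2 library, CTRL in blue and KO in red, with a black bar at each group mean, for the 20 genes that were called in all 8 leave-one-out fits. The 7 genes at the top were higher in KO and the 13 below were lower, Rxrg being last.

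The naming rule took called genes with a mean of at least 10 TPM in the higher group and no overlap, of which there were 60 higher and 30 lower. Beyond those already described, the largest rises were of Runx2, a Runt family transcription factor, S100a6, a calcium-binding protein, Plac8, Ap3s2, a subunit of the AP-3 adaptor that sorts cargo to lysosome-related granules, Ube2s, a ubiquitin-conjugating enzyme of the anaphase-promoting complex, and Cmpk2, a mitochondrial nucleotide kinase induced by interferon. Runx2 was at 6.98, 6.00, 7.30 and 5.20 TPM in CTRL and at 12.89, 14.48, 18.93 and 9.49 TPM in KO, a log2 fold change of 0.99 (limma adjusted p = 0.0204). Plac8 was at 212.67, 279.10, 221.62 and 125.41 TPM in CTRL and at 292.82, 448.89, 449.87 and 334.13 TPM in KO, a log2 fold change of 0.89 (limma adjusted p = 0.0247). In both genes the KO library nearest to CTRL still exceeded all CTRL libraries, KO 4 for Runx2 and KO 1 for Plac8. S100a6 rose from 51.0 ± 18.4 to 93.7 ± 13.1 TPM, and Ap3s2, Ube2s and Cmpk2 had log2 fold changes of 0.80, 0.79 and 0.77. Without KO 2 or KO 3 none of these 6 genes was called (limma adjusted p from 0.0672 to 0.12), without CTRL 4 Plac8 alone was (0.0494), and without CTRL 1, CTRL 3 or KO 4 the calls of 3, 3 and 4 of them ended (0.0503 to 0.0726). Without KO 1 or CTRL 2 all 6 were called, and with a term for Y-linked expression Ap3s2, Ube2s and Cmpk2 were not (0.0513 to 0.0521).

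The largest falls under the same rule covered surface receptors, secreted factors and enzymes. Cd6, a scavenger-type receptor of lymphocytes, was at 38.94, 30.87, 36.86 and 56.40 TPM in CTRL and at 25.48, 15.58, 13.80 and 16.46 TPM in KO (log2 fold change -1.15, limma adjusted p = 0.0317). Nrp1, neuropilin 1, a receptor for semaphorins and VEGF, was at 26.61, 34.14, 34.85 and 27.47 TPM in CTRL and at 23.89, 13.42, 9.49 and 11.50 TPM in KO (log2 fold change -1.10, limma adjusted p = 0.0317). KO 1 was the highest KO library for both and lay just under the CTRL range. Ahr, the aryl hydrocarbon receptor, a ligand-activated transcription factor of gut lymphocytes, fell from 17.5 ± 4.24 to 9.53 ± 1.62 TPM, and Kmo, an enzyme of tryptophan breakdown, from 26.7 ± 5.40 to 12.7 ± 2.49 TPM. Rln3, a relaxin family peptide, fell from 31.7 ± 10.9 to 11 ± 4.16 TPM, the chemokine Ccl5 from 48.6 ± 8.60 to 24.9 ± 6.04 TPM, Cavin1, a coat protein of caveolae, from 16.2 ± 3.75 to 6.06 ± 2.59 TPM, and Cep162, a centriolar protein, from 10.9 ± 0.951 to 5.88 ± 1.73 TPM. Mylip, a ubiquitin ligase and known LXR target, was at 12.27, 13.24, 11.96 and 15.75 TPM in CTRL and at 5.05, 9.03, 7.38 and 6.16 TPM in KO (log2 fold change -0.87, limma adjusted p = 0.0317). Epcam, an epithelial adhesion molecule, fell from 20.8 ± 5.28 to 9.96 ± 2.76 TPM. None of these 10 genes was called without CTRL 3, CTRL 4, KO 3 or KO 4 (limma adjusted p from 0.0505 to 0.143). Without CTRL 1 Nrp1 alone was (0.0474), without KO 2 Ccl5 and Mylip were (0.0452 each), and without CTRL 2 all but Kmo were (0.0559 for Kmo). With a pseudocount of 0.1 TPM all but Ccl5 and Mylip lost their call (0.0521 to 0.18), and with a term for Y-linked expression Ahr, Kmo, Rln3, Cep162, Mylip and Epcam did (0.0513 to 0.0656).

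Some of these falls coincide with genes that also mark other cells. Of the ILC3 markers, Nrp1 and Ahr were listed and both fell, with the values above. The defining ILC3 genes Il23r, Il17a, Il22 and Ncr1 were not listed. Of the epithelial markers, Epcam and Krt18 of 14 were listed, at 18.41 to 30.42 TPM summed in CTRL and 12.01 to 16.46 TPM in KO, and the members went opposite ways: Epcam fell, while Krt18 was at 2.33 to 4.26 TPM in CTRL and 3.52 to 6.19 TPM in KO (limma adjusted p = 0.18). Not listed were the gut epithelial genes Vil1, Fabp1 and Krt20. T cell markers were 3 of 12, Cd3g, Cd247 and Cd5, at 58.79 to 90.74 TPM in CTRL and 29.83 to 100.53 TPM in KO. Macrophage, monocyte and dendritic cell markers were 5 of 14, at 184.61 to 487 TPM in CTRL and 143.63 to 229.02 TPM in KO, with CTRL 3 the highest. For NK cells and ILC1s 2 of 9 were listed (3.50 to 7.90 and 5.22 to 8.64 TPM), for B and plasma cells 1 of 8, for erythroid cells 1 of 6, for stromal and endothelial cells 1 of 8, and for mast cells, basophils and eosinophils 0 of 10. The part of other cells in the results was not tested. In bulk samples, fewer cells of a type and less RNA per cell cannot be told apart.

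The next question is whether programmes tied to the receptor moved. Counts of called members of a list, here and below, stand beside 0.943% of all genes tested called higher and 0.596% called lower. Among RXRs and their partner receptors, 0 of 23 tested members were called, the median log2 fold change was -0.10, and 8 members were above 0, against 49.4% of all genes tested. Without KO 1, 1 member was called lower. Rxra, the family member found in most tissues, was at 3.37, 3.40, 3.37 and 3.18 TPM in CTRL and at 2.84, 1.39, 2.46 and 2.47 TPM in KO. Its groups did not overlap but the difference did not pass (log2 fold change -0.42, limma adjusted p = 0.266). Rxrb, at 12.2 ± 2.48 and 10.7 ± 2.77 TPM, was the member of the family with the highest level in KO cells. Of the partners, Nr1h2, which encodes LXR beta, was at 61.2 ± 3.95 and 58.7 ± 5.98 TPM, and Pparg, the receptor that favours lipid uptake in ILC2s, at 10.6 ± 1.88 and 13.5 ± 3.83 TPM.

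Among LXR targets and genes of cholesterol efflux, 1 of 14 was called lower (Mylip) and 0 higher, with 3 above 0 and a median log2 fold change of -0.18. Abcg1, the sterol exporter, was at 43.79, 34.88, 38.21 and 47.11 TPM in CTRL and at 35.92, 27.65, 26.71 and 24.44 TPM in KO. KO 1 overlapped with CTRL 2, and the log2 fold change of -0.51 missed the threshold at a limma adjusted p of 0.0552. Apoe, an acceptor of exported cholesterol, was at 4.75 ± 1.48 and 2.12 ± 1.10 TPM (limma adjusted p = 0.0731). Without KO 1, 5 of the 14 were called lower, without CTRL 2 3 were, and without CTRL 1, CTRL 3, CTRL 4, KO 3 or KO 4 none was. Abca1, the other main efflux pump, was listed at 0.40 to 0.85 TPM in these libraries and was not tested.

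Genes of cholesterol synthesis and uptake leaned the other way, with 21 of 27 above 0 and a median log2 fold change of 0.15, but none was called. The count was 3 of 27 higher without KO 1 and 2 without CTRL 2. Fdps, which makes farnesyl diphosphate, was closest, at 78.26, 89.94, 87.92 and 66.35 TPM in CTRL and at 86.18, 114.70, 157.05 and 133.31 TPM in KO (log2 fold change 0.58, limma adjusted p = 0.0501). KO 1 lay within the CTRL range for Fdps and the other KO libraries above it. Fatty acid synthesis (16 genes, median 0.10) and fatty acid uptake, storage and oxidation (22 genes, median -0.02) had no called member, and 1 each without KO 1, lower in the former and higher in the latter. Dgat2, the last enzyme of triglyceride synthesis, was at 596.59, 587.82, 759.09 and 660.25 TPM in CTRL and at 536.25, 372.14, 357.97 and 350.90 TPM in KO. All KO libraries were below all CTRL libraries, yet the gene was not called (log2 fold change -0.70, SE 0.288, limma adjusted p = 0.194). Of 9 tested genes of retinoid metabolism and retinoic acid targets, 0 were called, and 1 rose without KO 1.

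Of 38 transcription factors and receptors of ILC2s, 3 fell, beside 0.596% of all genes tested called lower, and none rose. In this list 9 genes were above 0, and the median log2 fold change was -0.23 beside -0.00284 for all genes. Id2, the inhibitor of E proteins that all innate lymphoid cells need, was at 750.99, 671.70, 799.45 and 796.69 TPM in CTRL and at 674.70, 482.89, 446.41 and 473.86 TPM in KO, with KO 1 within the CTRL range (log2 fold change -0.55, limma adjusted p = 0.0295). Gata3, the lineage-defining transcription factor, was at 285.51, 262.79, 293.64 and 286.72 TPM in CTRL and at 243.55, 210.86, 186.14 and 232.68 TPM in KO (log2 fold change -0.37, limma adjusted p = 0.0375). Il17rb, the IL-25 receptor subunit, was at 243.88, 284.98, 293.16 and 320.23 TPM in CTRL and at 212.72, 238.59, 209.69 and 176.42 TPM in KO (log2 fold change -0.45, limma adjusted p = 0.0345). For Gata3 and Il17rb the groups did not overlap. Without CTRL 3, CTRL 4, KO 3 or KO 4 none of the 3 was called (limma adjusted p from 0.0587 to 0.125), and without CTRL 1 or KO 2 only Il17rb was. The Gata3 call was also lost with a term for Y-linked expression (0.0605). Without KO 1 the list had 9 falls and 1 rise, and without CTRL 2 it had 4 falls and 1 rise. Il1rl1, the IL-33 receptor, was at 66.8 ± 10.6 and 41.9 ± 15.9 TPM (limma adjusted p = 0.18), Klrg1 at 689 ± 61.3 and 603 ± 35.2 TPM, Rora at 121 ± 9.97 and 115 ± 29.7 TPM and Arg1 at 241 ± 35.6 and 228 ± 107 TPM, none of them called.

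The type 2 cytokines were not called. Il4 was at 106 ± 17.6 TPM in CTRL and 94.0 ± 11.4 TPM in KO, Il5 at 32.3 ± 5.64 and 26.5 ± 5.54 TPM, and Il13 at 3.04 ± 0.187 and 4.34 ± 1.09 TPM, with limma adjusted p of 0.454, 0.463 and 0.509. For Il13, the lowest KO library was at 3.30 TPM and the highest CTRL library at 3.32 TPM, so the groups touched. Areg, a growth factor of tissue repair, was at 7.03 ± 2.63 and 5.35 ± 2.48 TPM, and Il9 and Il10 were not tested. Of 13 tested cytokines and secreted effectors, 2 fell, Ccl1 and Ccl5, both described above, and none rose. Over all genes tested, 0.596% were called lower.

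Receptors that restrain or costimulate lymphocytes held 2 rises and no fall among 19 tested. Over all genes tested, 0.943% were called higher and 0.596% lower. Besides Tigit, Havcr2, which encodes the inhibitory receptor TIM-3, rose from 0.37 ± 0.341 to 1.71 ± 0.782 TPM (limma adjusted p = 0.0499), a call that was lost without CTRL 1, CTRL 3, CTRL 4, KO 2, KO 3 or KO 4 (0.052 to 0.16), with a pseudocount of 0.1 TPM (0.0806) and with a term for Y-linked expression (0.0739). Ctla4 was at 15.09, 11.92, 16.39 and 3.55 TPM in CTRL and at 19.64, 30.55, 21.16 and 19.32 TPM in KO. Its groups did not overlap, and at a log2 fold change of 1.04 it missed the threshold (limma adjusted p = 0.0816). Lag3 was at 4.62 ± 3.26 and 10.4 ± 4.08 TPM (limma adjusted p = 0.0745), while Pdcd1, at 28.9 ± 6.82 and 27 ± 9.02 TPM, and Icos, at 180 ± 22.2 and 189 ± 23 TPM, had overlapping groups. Without KO 1, 5 of the list rose and 2 fell. Ctla4, Lag3 and Pdcd1 were named after their values were seen.

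Of 23 NF-kB subunits and response genes none passed the test, 20 were below 0, and the median log2 fold change was -0.29. At an unadjusted p under 0.05, 10 were lower (4 without KO 4, 5 without KO 2 and 6 without CTRL 3). With all libraries, 8.19% of all genes tested were lower at that threshold. In CTRL the 23 genes summed to 2258, 2123, 2483 and 2363 TPM and in KO to 2067, 1752, 1770 and 1667 TPM, so the groups did not overlap. Ltb, lymphotoxin beta, a TNF family member, carried most of the difference, at 859.39, 757.52, 962.46 and 1033.77 TPM in CTRL and at 657.04, 563.36, 562.66 and 569.75 TPM in KO (log2 fold change -0.61, limma adjusted p = 0.0731). Every KO library was below every CTRL library for Ltb. Nfkbia, the inhibitor of NF-kB, was at 478 ± 40.1 and 394 ± 70.4 TPM. The list had 7 falls without KO 1, 1 without CTRL 2 and none without any of the other 6 libraries. The 19 JAK, STAT and SOCS genes (median -0.23) and the 15 immediate early genes (median -0.28) likewise held no call, with 2 falls each without KO 1 and 1 each without CTRL 2. Of 34 genes of the interferon response and antigen processing, H2-K1, a classical MHC class I heavy chain, fell from 2655 ± 140 to 1936 ± 385 TPM (log2 fold change -0.47, limma adjusted p = 0.0247), and the list median was -0.14. The H2-K1 call was lost without CTRL 3, CTRL 4, KO 2, KO 3 or KO 4 (0.0514 to 0.0833), without KO 1 the list had 8 falls, and without CTRL 2 it had 2 falls and 1 rise. B2m, its light chain, was at 4843.83, 4789.92, 4813.96 and 5100.02 TPM in CTRL and at 5172.86, 3694.54, 3195.05 and 3620.24 TPM in KO, so KO 1 was the highest of all 8 libraries and the other KO libraries the lowest.

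Genes of proliferation had higher values in KO but few calls. All 30 S phase and DNA replication genes had a log2 fold change above 0, with a median of 0.36. Of these, 23 had an unadjusted p under 0.05 (12 without CTRL 4, where the median was 0.24, and 13 without KO 3). With all libraries, 11.1% of all genes tested were higher at that threshold. Prim1, the small subunit of DNA primase, was the only member called. Prim1 was at 51.56, 55.19, 46.41 and 48.51 TPM in CTRL and at 60.23, 65.71, 68.43 and 70.44 TPM in KO (log2 fold change 0.39, limma adjusted p = 0.0247). In CTRL the list summed to 2983, 3457, 3182 and 2323 TPM and in KO to 2902, 3941, 4424 and 3894 TPM. KO 1 lay within the CTRL range, CTRL 4 was the lowest library, and the other 3 KO libraries were above all CTRL libraries. All 32 genes of mitosis and cytokinesis were above 0 as well, with a median of 0.35 and 0 calls. Without KO 1, 20 of the 30 S phase genes and 13 of the 32 mitosis genes were called higher, without CTRL 2 these counts were 7 and 10, and without CTRL 3, CTRL 4, KO 2, KO 3 or KO 4 both were 0. For the 4 members that the naming rule took from each of these lists, log2 fold changes were 0.50 to 0.79 in libraries with Y-linked expression. In libraries without it, where CTRL 2 is the only CTRL library, they were -0.169 to 0.186. Cells that divide share the genes of both lists, so the members are not independent of each other.

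Genes of energy metabolism had a similar order of libraries. All 36 nuclear-encoded genes of oxidative phosphorylation were above 0 (26 after quantile normalization), with a median of 0.18 (0.07 after it), and Cox5a, of cytochrome c oxidase, and Atp5g1, of ATP synthase, were called. Cox5a was at 448.54, 450.92, 425.89 and 367.80 TPM in CTRL and at 482.22, 578.87, 593.29 and 525.74 TPM in KO (log2 fold change 0.36, limma adjusted p = 0.0247). Of 21 genes of glycolysis 18 were above 0, and Pgk1, phosphoglycerate kinase, rose from 381 ± 22.7 to 470 ± 51.6 TPM (limma adjusted p = 0.046). Of 19 genes of the amino acid response and serine synthesis, 2 rose, Psat1, an aminotransferase of serine synthesis, from 119 ± 17.5 to 169 ± 23.6 TPM, and Shmt2, which passes a carbon from serine to folate in mitochondria, from 122 ± 5.68 to 161 ± 19.1 TPM. Of 13 heat shock chaperones, Hsp90ab1 rose from 1599 ± 117 to 1947 ± 117 TPM (limma adjusted p = 0.0499). KO 1 was the lowest KO library in each of these genes. With a term for Y-linked expression, Atp5g1, Pgk1, Psat1, Shmt2 and Hsp90ab1 were not called (0.0513 to 0.0752), nor were Pgk1 and Hsp90ab1 with a pseudocount of 0.1 TPM (0.0564 and 0.0587) or after quantile normalization (0.096 and 0.124). Without KO 1, 20 of the oxidative phosphorylation genes, 9 of the glycolysis genes, 8 of the serine and amino acid genes and 5 of the chaperones were called higher, and without CTRL 4, KO 2 or KO 3 none was. Without CTRL 2 the counts were 5, 5, 3 and 1, without CTRL 1 they were 2, 0, 1 and 0, without CTRL 3 they were 0, 0, 1 and 0, and without KO 4 they were 1, 0, 0 and 0. Of the other lists, those of the unfolded protein response (21 genes, median 0.17), of Myc and ribosome biogenesis (30 genes, 0.13), of the BCL-2 family and p53 targets (25 genes, 0.000594) and of chemokine receptors, adhesion and egress (22 genes, -0.08) held no call. Without KO 1 these lists held 5, 1, 1 and 4 rises and 0, 0, 5 and 4 falls, and without CTRL 2 they held 3, 0, 1 and 2 rises and no fall.

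**Figure D4:**
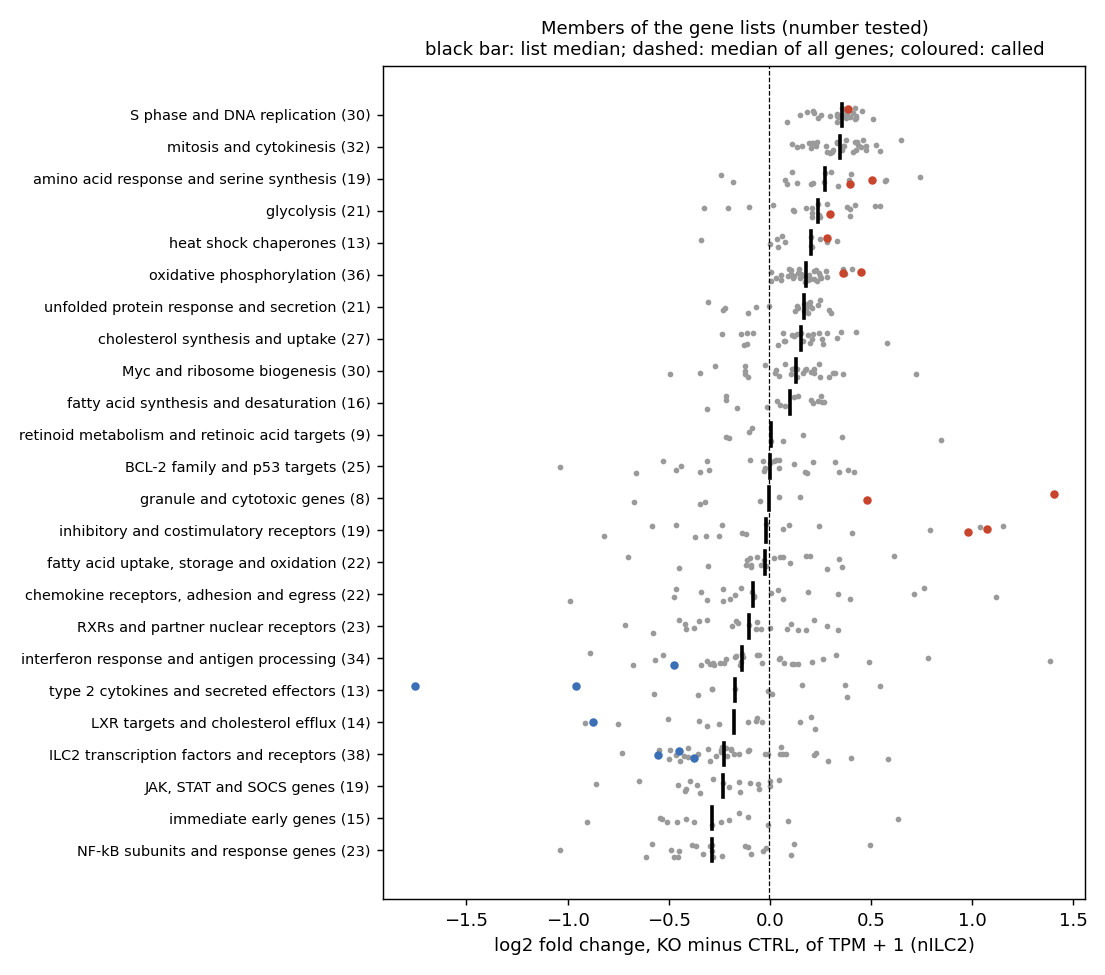
Each point is 1 tested gene of a list, with its log2 fold change of TPM + 1 in nILC2 KO against CTRL on the x axis and the lists ordered by their median (black bar). Red and blue points are genes called higher and lower. The S phase, mitosis and oxidative phosphorylation lists lie wholly to the right of the dashed median of all genes. The NF-kB list has the lowest median of the 24 lists drawn, which leave out the cell type markers and the sex-linked genes.

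Genes that flank a targeted locus can differ between strains when the allele comes from other embryonic stem cells, so the neighbourhood of Rxrg was read on its own. Within 5 Mb on either side, 64 genes were tested and 3 were called: Fcer1g, Dedd, a death effector domain protein, which fell from 23.7 ± 2.00 to 14.7 ± 3.36 TPM at 3715 kb from Rxrg, and Tagln2, an actin-binding protein, which rose from 665 ± 111 to 922 ± 159 TPM at 4885 kb. Dedd lost its call without CTRL 1, CTRL 3, CTRL 4, KO 2, KO 3 or KO 4 (limma adjusted p from 0.0516 to 0.0996) and Tagln2 without CTRL 1, CTRL 4, KO 2, KO 3 or KO 4 (0.0877 to 0.146), and both with a term for Y-linked expression (0.0513 and 0.0662). Tagln2 also lost it with a pseudocount of 0.1 TPM (0.0564). Within 20 Mb, 177 genes were tested and 6 were called. Both counts stand beside a share of 1.54% called over all genes tested. The calls within 20 Mb include Kmo, which lies 8028 kb from Rxrg. The part of the allele's origin in these calls was not tested, and the labels give only C57BL/6.

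In the iILC2 libraries of the same genotypes, 0 genes were called (0%), with 328 at an unadjusted p under 0.05. Rxrg was low there already, at 1.62 TPM in CTRL and 0.28 TPM in KO, and together with Kmo, at 22.7 and 9.32 TPM, it had the smallest limma adjusted p, 0.445. Kmo lies 8028 kb from Rxrg on the same chromosome. The difference between the KO effects in nILC2 and in iILC2 was tested in the same fit and called 0 genes (0%), with 1059 at an unadjusted p under 0.05. The smallest adjusted p for that difference was 0.0605, for Tigit, Wipf3 and Tnfsf11, followed by 0.0828 for several genes, among them Srgn, Ceacam1, Clnk, Ampd3 and Moxd1. This fit treats nILC2 and iILC2 libraries of the same number as independent, although their Y-linked values matched and their deviations correlated (r of 0.049 to 0.253 in CTRL and 0.102 to 0.231 in KO). With the replicate number as a block, the difference was called for 8 genes: Scin, Ceacam1, Tigit, Clnk, Tex9, Runx2, Tnfsf11 and Srgn (limma adjusted p from 0.00381 to 0.0464). With the number as a block within each genotype, chosen after seeing the data, it was also called for 8, namely Scin, Ceacam1, Tigit, Clnk and Tex9 again and Id2, H2-Q7 and Nkg7 (0.011 to 0.0427). A KO effect that differs between nILC2 and iILC2 was thus called for single genes with a block and for none in the main fit. Some other fits without a block also called it for single genes or more, with the counts given in the section on processing. Without KO 1 the difference was called for 132 genes and without CTRL 2 for 5, and without any one of the other 6 libraries for none. The levels in iILC2, CTRL and KO side by side, were 27.1 and 33.0 TPM for Clnk, 77.6 and 82.7 TPM for Tigit, 43.6 and 68.4 TPM for Fcer1g, 439 and 504 TPM for Nkg7, and 1884 and 1826 TPM for Srgn. For the falls they were 0.253 and 0.263 TPM for Tnfsf11, 2.15 and 1.39 TPM for Ceacam1, 0.34 and 0.28 TPM for Nrp1 and 101 and 113 TPM for Id2, while Ccl1 was listed at 0 in both groups. Of the 155 genes called in nILC2, 91 had the same sign in iILC2. The share with the same sign over all genes tested was not computed, so this count alone shows no agreement. The median log2 fold changes in iILC2 were 0.02 for the genes higher in nILC2 KO and -0.07 for those lower.

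The culture libraries of the series, from WT ILC2s kept in IL-2 plus IL-7, to which IL-25 was added or not, share no library with this comparison. Of 95 genes higher in nILC2 KO, 93 were tested there. At 48 h, 57 of the 93 (61.3%) were called higher with IL-25 and 10 (10.8%) lower, where 21.2% and 29.4% of all 9846 genes tested in both tables were. Of 53 genes lower in KO that were tested, 36 (67.9%) were lower with IL-25 and 4 (7.55%) higher. The 57 shared rises were 2.73% of the genes that IL-25 raised and the 36 shared falls 1.24% of those it lowered. The median log2 fold change with IL-25 was 0.44 for the genes higher in KO and -0.94 for those lower, beside -0.10 over all genes. The shares were close to this at 72 h, 58.1% and 62.3%, against 14.5% and 34.3% of all genes. At 4 h this differed for the genes higher in KO: 20 (21.5%) were higher with IL-25 and 28 (30.1%) lower, against 13.7% and 28.1% of all genes, with a median of -0.121 beside -0.127 over all genes. Of the genes lower in KO, 35.8% were lower and 5.66% higher with IL-25 at 4 h. Rxrg itself was lower with IL-25 at 48 h (log2 fold change -3.55, limma adjusted p = 2.13e-13).

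Single genes followed this pattern to different degrees. Tigit had a log2 fold change of 6.24 with IL-25 at 48 h, Plac8 of 2.38 and Srgn of 0.87, and Il17rb, Nrp1, Ahr and Gata3 had log2 fold changes of -2.72, -2.00, -2.04 and -1.29. Nkg7 went against it, at -2.76 with IL-25 (limma adjusted p = 1.19e-14) while higher in KO, and Fcer1g had -0.67 (0.00485). Clnk did not differ with IL-25 beyond the threshold (0.05, limma adjusted p = 0.792).

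**Figure D5:**
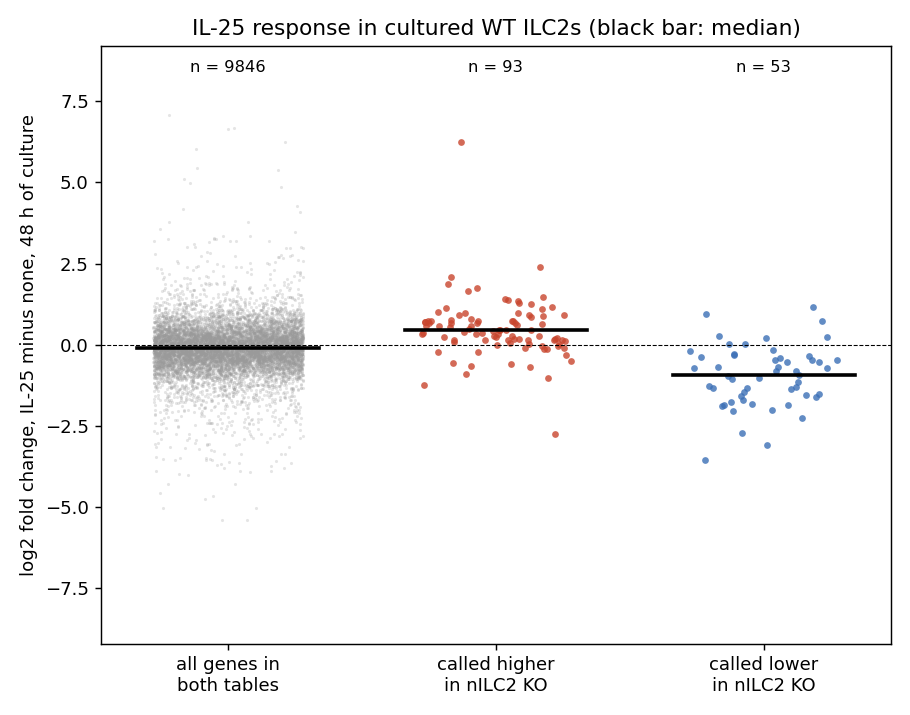
Each point is the log2 fold change of 1 gene with IL-25 against none after 48 h of culture of WT ILC2s, for all 9846 genes tested in both tables, the 93 called higher and the 53 called lower in nILC2 KO. The black bars are the medians, -0.10, 0.44 and -0.94.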

How the data were processed

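Per the labels, the authors made Smart-seq2 libraries of flow-sorted small intestinal ILC2s and deposited TPM values, 1 per gene and library, in a table of 16 genotype libraries and a table of 24 culture libraries. The submitters' processing notes name cutadapt 2.10, STAR 2.7.5c, RSEM 1.3.3 and the build mm10 without giving their roles. How the listed genes were chosen is not given in the sources used here. TPM keeps no depth, so no counting interval or limit of detection can be given.

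Groups were taken from the sample titles. TPM + 1 was log2-transformed, and a gene was kept where 4 or more of the 16 genotype libraries reached 1 TPM. limma 3.58.1 (R 4.3.3, empirical Bayes with a mean-variance trend) was fitted to all 16 libraries with 1 mean per group, and Benjamini-Hochberg adjustment ran over every gene kept, a gene being called at an adjusted p under 0.05. The difference between the KO effects in nILC2 and iILC2 was a contrast of the same fit. The culture table was fitted in the same way but separately. The Rxrg level was compared by a two-sided exact permutation test. Gene positions, names and promoters came from RefSeq tables with GRCm38.p6. Figures were drawn with matplotlib 3.10.9 (Python 3.11.15).

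The members and the gene lists were chosen with earlier results of these data known. The rule named Rxrg, 20 key genes, up to 12 rises and up to 12 falls with a mean of at least 10 TPM in the higher group and no overlap, up to 4 members of each list, and genes within 5 Mb of Rxrg. Genes named outside it were chosen after their values were seen. A few genes that the rule or the lists name are not reported here. Alternatives were another pseudocount, other filters and scalings, array weights, the replicate number as a block, a term for Y-linked expression, the 8 nILC2 libraries alone, a permutation test per gene, and leaving out each library. The ATAC-seq and CUT&Tag data that the series text mentions were not used here.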

Additional observations from a re-analysis of the deposited data

Results flagged for a closer look

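For each of the 97 genes followed by name, Dixon's ratio (the gap from the highest or lowest library to its nearest neighbour, over the whole range) was computed in each nILC2 group of 4. In 17 of 194 groups it passed Dixon's critical value for groups of this size. Chance alone passes about 1 group in 20, and no gene here carries a test of its own.

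KO 1 stood above the other KO libraries for Dgat2 (536.25 TPM), Id2 (674.7 TPM), Ltb (657.04 TPM) and Nyap2 (0.63 TPM), and apart from them for Cd5 (4.4 TPM). For Dgat2, Id2, Ltb and Nyap2 that places KO 1 nearest to CTRL. CTRL 2 stood apart for Fcer1g (18.31 TPM), Ceacam1 (8.03 TPM), Arg1 (294.32 TPM) and Rom1 (10.07 TPM), and it was the CTRL library in which Eif2s3y, Ddx3y and Kdm5d were listed at 0 TPM. CTRL 1 was the highest CTRL library for Il1rl1 (82.68 TPM) and Pparg (13.43 TPM). The other 3 cases were Rxra in CTRL 4 (3.18 TPM), where the whole CTRL range is narrow, Tigit in KO 3 (26.42 TPM) and Ctla4 in KO 2 (30.55 TPM).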

How the results depend on the processing

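Rxrg was 6.90-fold lower in KO, between 6.06-fold and 8.06-fold with 1 library left out and 6.84-fold after rescaling by the median of ratios. No alternative called a gene in iILC2. No called gene among the 97 named changed sign, which says little, since these genes were called on the same libraries. Of the uncalled named genes, 8 changed sign. Over the fits with 1 library left out, log2 fold changes ranged from -0.11 to 0.00291 for Nr1h2, -0.26 to 0.00783 for Rora, -0.47 to 0.16 for Arg1, -0.49 to 0.45 for Gzma, -0.0598 to 0.21 for Cd5 and -0.32 to 0.027 for Pdcd1. Icos was at -0.0412 after quantile normalization. Gzma and Cd5 were at 0.20 and -0.0175 with array weights, Gzma and Eif2s3y at 0.17 and 0.040 with a term for Y-linked expression, and Gzma, Eif2s3y and Cd5 at 0.62, 0.0107 and -0.14 without CTRL 4 and KO 1. The number of genes called in nILC2 (155, with 95 higher and 60 lower) did move. It was 82 (59 and 23) with a pseudocount of 0.1 TPM, 272 (204 higher) after rescaling by the median of ratios, 275 (187 higher) with array weights, 62 (29 and 33) with a term for Y-linked expression, and 5 (2 and 3) in the 8 nILC2 libraries alone. With 1 library left out it ranged from 23 to 1006 (7 to 641 higher, 13 to 365 lower), and with CTRL 4 and KO 1 both left out, an alternative chosen after seeing the data, it was 563 (363 and 200). No filter gave 147, a filter of 5 TPM 139 and quantile normalization 209. With the replicate number as a block it was 317 (196 and 121), all 155 among them. The labels do not say whether nILC2 CTRL and KO libraries of the same number share a batch, and this was not tested. Deviations of same-numbered nILC2 CTRL and KO libraries correlated with r of 0.125, 0.131, 0.187 and -0.0443, and 5 of 8 libraries correlated best with their own number. Between nILC2 and iILC2 of the same number, r was 0.253, 0.153, 0.133 and 0.049 in CTRL and 0.188, 0.102, 0.231 and 0.145 in KO.

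Genes called for the difference between nILC2 and iILC2 effects were 0, but 1 after quantile normalization, 21 with array weights, 5 with the Y-linked term, 8 with the replicate block, 8 with a replicate block within genotype (chosen after seeing the data), 137 without CTRL 4 and KO 1, and 0 to 132 with 1 library left out. Of the 97 named genes, 25 lost their call with the smaller pseudocount, 27 with the Y-linked term, 59 in the 8 libraries alone, and 0 to 44 with 1 library left out. The causes were not tested. Depth is unknown, so how far it limits the low genes cannot be told.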

Other observations

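A few gene groups beside the lists are given here as values. Both the groups and their members were chosen after the values were seen, so their counts support nothing, and some MHC class I genes are also in the interferon and antigen processing list. Of 18 tested genes of the actin cytoskeleton, 9 were called higher in nILC2 KO (limma adjusted p under 0.05) and 17 had a log2 fold change above 0, with a median of 0.256. Actb and Actg1, the cytoplasmic actins, rose from 3426 ± 395 to 4286 ± 473 TPM and from 3205 ± 353 to 4143 ± 483 TPM, and Cfl1, the filament-severing protein cofilin, from 1391 ± 103 to 1719 ± 182 TPM (SD, n = 4 each). Of 17 tested annexins, galectins, S100 proteins and related genes, 6 were called higher and 15 were above 0. Lgals1, galectin 1, was at 726.74, 1007.69, 1061.57 and 550.35 TPM in CTRL and at 1029.05, 1696.27, 1797.03 and 1427.09 TPM in KO (log2 fold change 0.85, limma adjusted p = 0.0247). KO 1 lay within the CTRL range for Lgals1 and the other 3 KO libraries above it. Lgals3 rose from 136 ± 38.4 to 234 ± 67.1 TPM, Anxa2 from 348 ± 116 to 569 ± 121 TPM, Crip1, a LIM domain protein, from 779 ± 144 to 1208 ± 227 TPM and Vim, an intermediate filament protein, from 823 ± 132 to 1213 ± 239 TPM. None of these 8 genes was called without CTRL 1, CTRL 4, KO 2, KO 3 or KO 4 (limma adjusted p from 0.0503 to 0.154), all were without KO 1 or CTRL 2, and without CTRL 3 the 5 others were but Actb, Actg1 and Cfl1 were not. With a term for Y-linked expression Actb, Actg1, Cfl1, Lgals3, Anxa2 and Vim lost their call (0.0513 to 0.076), with a pseudocount of 0.1 TPM Actb, Lgals3 and Anxa2 did (0.0564 to 0.0584), and after quantile normalization Cfl1, Anxa2 and Vim did (0.0522 to 0.094).

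Among falls, Rnf128, a ubiquitin ligase that dampens lymphocyte activation, was at 50.15, 89.14, 133.65 and 146.4 TPM in CTRL and at 21.08, 56.14, 47.18 and 38.75 TPM in KO (log2 fold change -1.31). KO 2 lay above CTRL 1 for Rnf128. Rgs1, a regulator of G protein signalling, was at 359.18, 276.06, 360.66 and 425.32 TPM in CTRL and at 242.39, 199.19, 231.28 and 207.17 TPM in KO (log2 fold change -0.68), with every KO library below every CTRL library. The signalling ligands Jag1, of the Notch pathway, and Bmp2 fell from 4.39 ± 1.46 to 1.39 ± 0.388 TPM and from 7.72 ± 2.53 to 2.71 ± 1.61 TPM, and Cd81, a tetraspanin, from 299 ± 38.3 to 215 ± 33.9 TPM. The calls of all 5 were lost without CTRL 4, KO 2 or KO 3 (limma adjusted p from 0.0527 to 0.148). Without CTRL 1 3 of the 5 lost it, and without CTRL 3 or KO 4 4 did, while without CTRL 2 or KO 1 all kept it. All 5 lost it with a pseudocount of 0.1 TPM (0.0564 to 0.136), and Rnf128, Rgs1 and Cd81 with a term for Y-linked expression (0.0583 to 0.0662). Of 10 MHC class I heavy chain genes tested, 2 were called lower (H2-K1 and H2-Q7) and 9 were below 0, with a median log2 fold change of -0.37. These genes resemble each other in sequence, so reads may have been divided among them.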
